A study of Mus musculus with 24 samples.

Results

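The plasminogen system and the matrix metalloproteinases cut proteins outside cells, and 9 of their genes were examined in SIM-A9 cells, an established line of mouse microglia. The genes were chosen by symbol: Plau, Plat, Plaur, Serpinb2, Mmp9, Mmp12, Mmp13, Mmp14 and Timp1. Each symbol matched 1 Ensembl identifier of the deposited count table through GENCODE names, so that all 9 were found among 54838 genes. The study asked how microglia respond to probes used on neurons, with LPS as the positive control for inflammation. Poly-A RNA was sequenced from 24 libraries in 8 groups of 3. All groups were in serum-free medium for 2 h before the treatment began, and RNA was taken 2 h after it. The groups were control cells and cells given LPS, which is bacterial lipopolysaccharide, COOH SWCNT (carboxylated), (GT)6 SWCNT, AAV, Fura-2, DiBASC2 or Di-2-ANEPEQ. For every group, control included, an addition of 30 µL at 10x to 270 µL of medium is listed. SWCNT are single-walled carbon nanotubes, and (GT)6 names a short DNA oligonucleotide used to coat and disperse them. Fura-2 is a calcium indicator, DiBASC2 and Di-2-ANEPEQ are dyes, and AAV is an adeno-associated virus. The labels give no final concentration, and they do not say whether the 3 libraries of a group came from separate cultures, so p-values measure only the spread between these libraries, which may be technical. A single cell line at a single time was studied.

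The plasminogen system turns the inactive precursor plasminogen into plasmin, a protease that degrades fibrin and matrix. Urokinase (Plau) and tissue-type plasminogen activator (Plat) make this cut, the urokinase receptor (Plaur) holds urokinase at the cell surface, and serpins such as Serpinb2 block both activators. Matrix metalloproteinases are secreted or membrane-bound zinc proteases made as inactive precursors, some of which plasmin can activate, and tissue inhibitors such as Timp1 and Timp2 bind the active enzymes. Macrophages and microglia are known sources of urokinase, its receptor and several of these metalloproteinases.

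All 9 genes are protein-coding and lie on the plus strand of GRCm38 in GENCODE M21. Plau (ENSMUSG00000021822.3) spans chr14:20836660-20843385, Plat (ENSMUSG00000031538.6) chr8:22757727-22782844 and Plaur (ENSMUSG00000046223.10) chr7:24462484-24475968. Serpinb2 (ENSMUSG00000062345.10) spans chr1:107511423-107535478 and Timp1 (ENSMUSG00000001131.11) chrX:20870166-20874735. Among the metalloproteinases, Mmp9 (ENSMUSG00000017737.2) spans chr2:164940780-164955850 and Mmp14 (ENSMUSG00000000957.11) chr14:54431612-54445364. Mmp13 (ENSMUSG00000050578.10, chr9:7272514-7283331) and Mmp12 (ENSMUSG00000049723.14, chr9:7344381-7369499) are neighbours, separated by 61049 bases. Of the exon bases of Mmp12, 157 (2.17%) also lie in exons of Mmp1b on the other strand, and 291 of those of Serpinb2 (12.4%) lie in exons of Serpinb10. Strand use in counting is not given in the sources used here, so reads in those stretches cannot be assigned with certainty.

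Promoter windows of 300 bases (250 before and 50 after the RefSeq transcription start, build GRCm38.p6) were found for 6 members, with 8 windows in all. The 7 letters TGANTCA, the core bound by AP-1 (Fos and Jun proteins), were searched on both strands. They occurred in 5 of the 8 windows (62.5%), against 7.81% of all 32817 windows of this length. The windows with a match belong to 4 of the 6 members, and both Serpinb2 windows overlap and hold the same site, TGAATCA. Plaur, Mmp12 and Mmp13 held TGACTCA or TGAGTCA, and the share of all windows with those stricter letters was not counted. Those 4 members are Plaur, Mmp12, Mmp13 and Serpinb2, and 1 window of each is printed below because their transcripts can be compared with one another: 3 were changed by treatments and Serpinb2 was near 0 throughout. The match is in capitals, and it begins 69 bases before the start in Plaur, 44 in Mmp12, 35 in Mmp13 and 94 in Serpinb2.
Plaur, chr7:24462233-24462532, plus strand: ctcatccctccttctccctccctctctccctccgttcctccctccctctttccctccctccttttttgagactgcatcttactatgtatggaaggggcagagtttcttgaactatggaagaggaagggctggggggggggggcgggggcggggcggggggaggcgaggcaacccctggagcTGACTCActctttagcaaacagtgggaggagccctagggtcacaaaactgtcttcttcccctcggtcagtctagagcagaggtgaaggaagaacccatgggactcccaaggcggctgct
Mmp12, chr9:7347124-7347423, plus strand: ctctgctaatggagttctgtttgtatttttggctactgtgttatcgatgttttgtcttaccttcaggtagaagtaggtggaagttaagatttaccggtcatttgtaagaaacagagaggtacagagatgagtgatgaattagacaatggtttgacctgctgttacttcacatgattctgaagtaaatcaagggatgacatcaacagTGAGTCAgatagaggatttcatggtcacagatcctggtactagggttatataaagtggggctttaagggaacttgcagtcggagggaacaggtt
Mmp13, chr9:7272264-7272563, plus strand: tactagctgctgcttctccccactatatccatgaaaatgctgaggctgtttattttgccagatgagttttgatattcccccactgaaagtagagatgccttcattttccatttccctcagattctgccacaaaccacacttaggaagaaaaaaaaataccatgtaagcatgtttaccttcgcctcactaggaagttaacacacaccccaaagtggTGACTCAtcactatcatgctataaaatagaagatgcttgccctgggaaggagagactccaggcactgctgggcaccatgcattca
Serpinb2, chr1:107511173-107511472, plus strand: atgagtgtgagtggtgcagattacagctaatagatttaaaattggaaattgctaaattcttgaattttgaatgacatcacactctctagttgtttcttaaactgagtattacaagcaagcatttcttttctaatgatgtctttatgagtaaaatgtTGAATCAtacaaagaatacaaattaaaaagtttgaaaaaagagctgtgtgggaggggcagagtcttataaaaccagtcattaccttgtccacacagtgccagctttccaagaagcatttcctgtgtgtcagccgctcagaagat
The other Mmp12 window, at an earlier start, held no such match, nor did the windows of Mmp14 and Timp1. The letters TGACGTCA (the cAMP response element) and the NF-kB consensus were in 0 of the 8 windows, against 1.79% and 4.50% of all windows. TATAAA was in windows of 3 members, a count of genes, and in 13.6% of all windows, a share of windows. In Mmp12 it begins at base 5 after the start. These are matches of letters in short windows, and no binding was measured.

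Total counts ranged from 17364272 to 29259221 per library. All 12 microglial markers examined passed the filter on low counts, and their summed level was 2649 to 2944 CPM (counts scaled to a common library size) in all groups. Summed astrocyte, neuronal and fibroblast markers reached at most 0.706, 1.03 and 0.379 CPM, with the fibroblast genes Dcn and Lum at 0 in every library. Oligodendrocyte markers summed to 31.9 to 41.8 CPM with Mog at 0, and endothelial markers to 90.8 to 142 CPM, nearly all from Kdr, with Cldn5 at 0. Kdr was lower in LPS (94.7 ± 6.04 CPM, mean ± SD, n = 3) and in (GT)6 SWCNT (104 ± 3.44) than in control (131 ± 5.49), with log2 fold changes of −0.47 and −0.33 (adjusted p = 6.1e-09 and 9.97e-06 in edgeR). These 2 groups are also among those in which members rose, and the part of Kdr in that was not tested. In COOH SWCNT, where members also rose, Kdr stood at 129.7 ± 6.42 CPM. In bulk RNA, a change in how many cells of a type are present and a change in RNA per cell cannot be told apart. The sample numbers in the labels run in blocks of 3 per group, so library order and treatment cannot be told apart either.

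In control cells the members spanned a wide range of levels, compared here as CPM per kilobase of exon. Plau stood at 203 ± 13.5 CPM per kilobase, and 1.63% of 13112 genes had a higher level. Plaur followed at 24.9 ± 0.157, then Mmp9 at 3.53 ± 0.491 and Mmp12 at 2.41 ± 0.499. Timp1 at 1.21 ± 0.763 and Mmp13 at 0.752 ± 0.231 were lower, and Plat at 0.0257 ± 0.0146 and Mmp14 at 0.0216 ± 0.00600 CPM per kilobase rested on 1 to 5 counts per library. Control SIM-A9 cells held abundant urokinase transcript and hardly any transcript of the other activator. The plot of members by library shows this order and the groups in which it shifted.

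**Figure D1:**
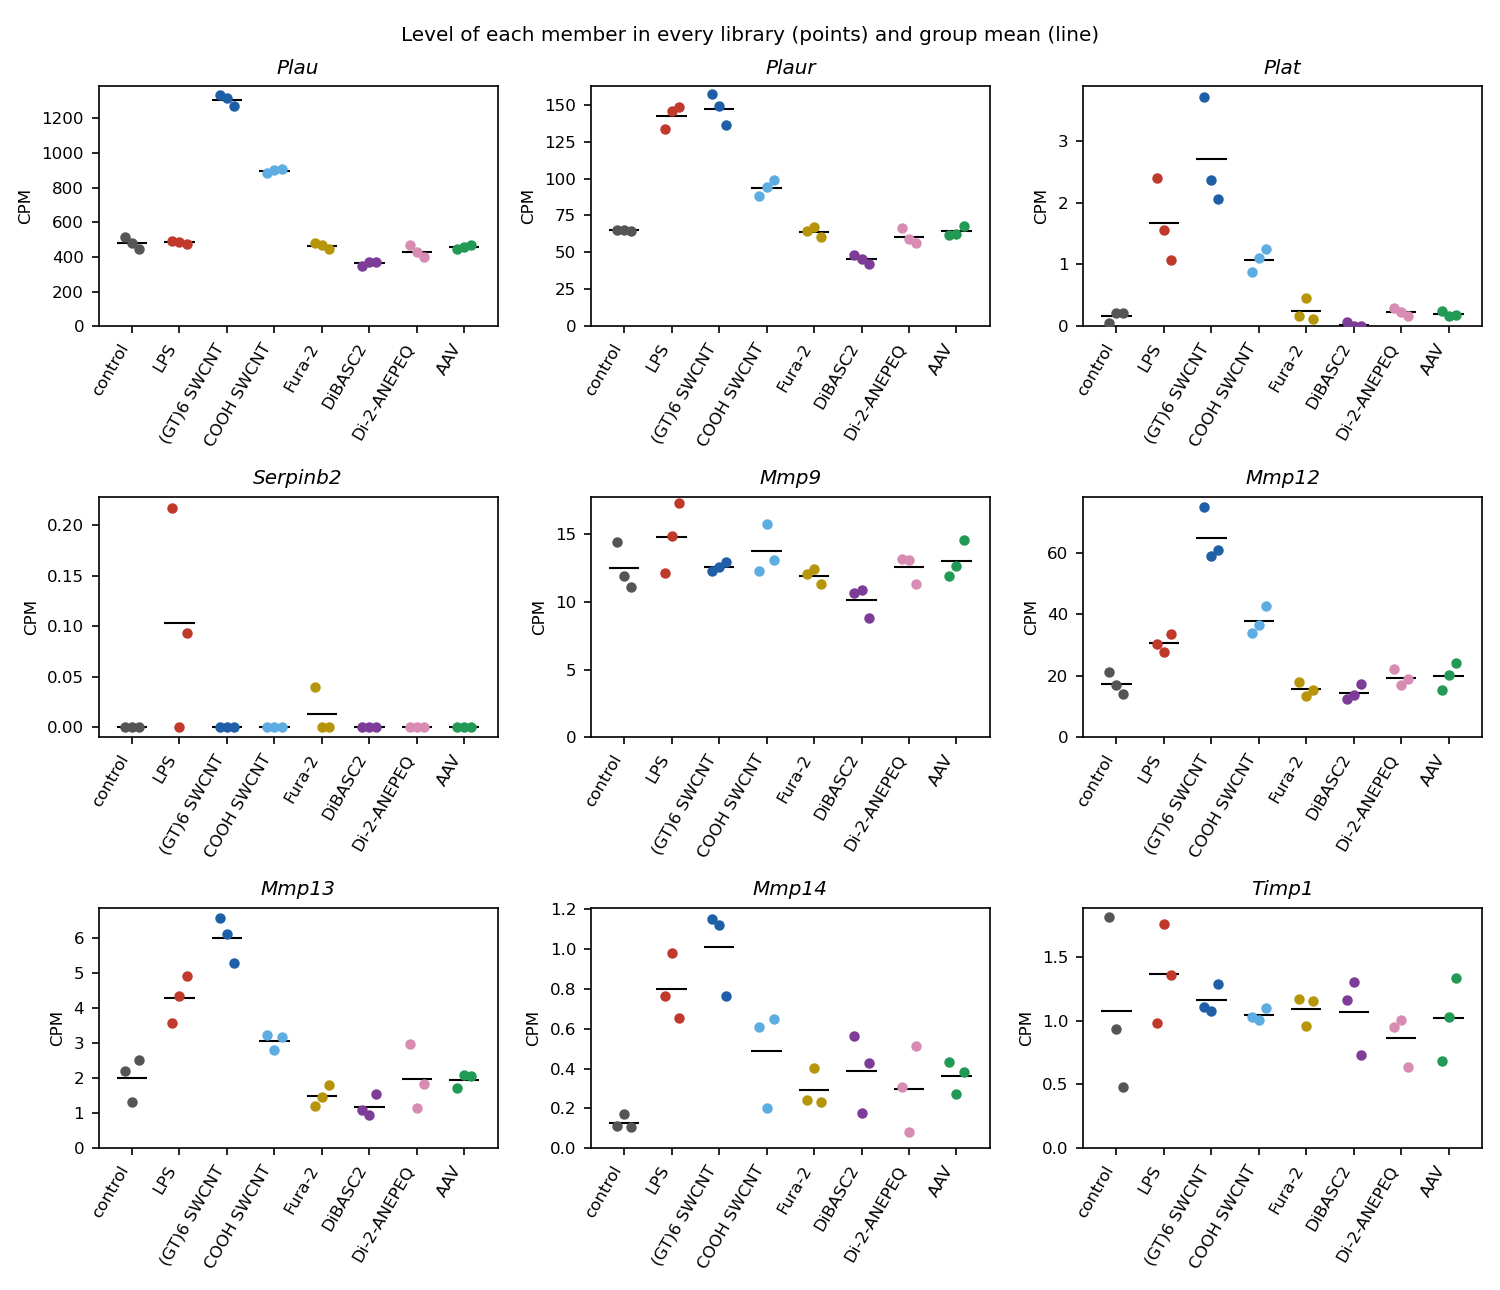
Level of the 9 genes (CPM, vertical axes on separate scales) in each library (points) with the group mean (line), for 8 groups of 3 libraries. Plau lies near 480.5 CPM in control and LPS and at 886 CPM or more in all libraries of both nanotube groups, while Plaur, Plat, Mmp12 and Mmp13 are higher in LPS as well.

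Differences between groups were tested with edgeR's quasi-likelihood test in 1 fit of all libraries, over 13116 genes, and calls were made where the p-value, adjusted by Benjamini-Hochberg within a comparison, was under 0.05. Of the members, 8 passed the filter on low counts and Serpinb2 did not. Plat and Mmp14 exceeded the filter's level of 0.416 CPM in 0 control libraries and passed mainly through the LPS and nanotube libraries, where they are high, so their calls there are descriptions and counts over the tested members support nothing. The 7 treatments were each compared with the same 3 control libraries.

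In both nanotube groups transcripts of urokinase, its receptor and the macrophage elastase Mmp12 rose. In (GT)6 SWCNT 6 of the 8 tested members rose (Plau, Plaur, Plat, Mmp12, Mmp13 and Mmp14), where 20.4% of all tested genes were called and 9.90% were higher. In COOH SWCNT 5 rose (the same without Mmp13), where 20.0% of genes were called and 9.39% were higher. In LPS 5 rose (Plaur, Plat, Mmp12, Mmp13 and Mmp14), where 28.3% were called and 13.8% were higher. Without Plat and Mmp14 the counts were 4, 3 and 3 of 6. The median log2 fold change of those 6 members was 0.58 in COOH SWCNT, 1.31 in (GT)6 SWCNT and 0.59 in LPS, beside medians of 0.00, −0.02 and −0.01 over all tested genes.

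**Figure D2:**
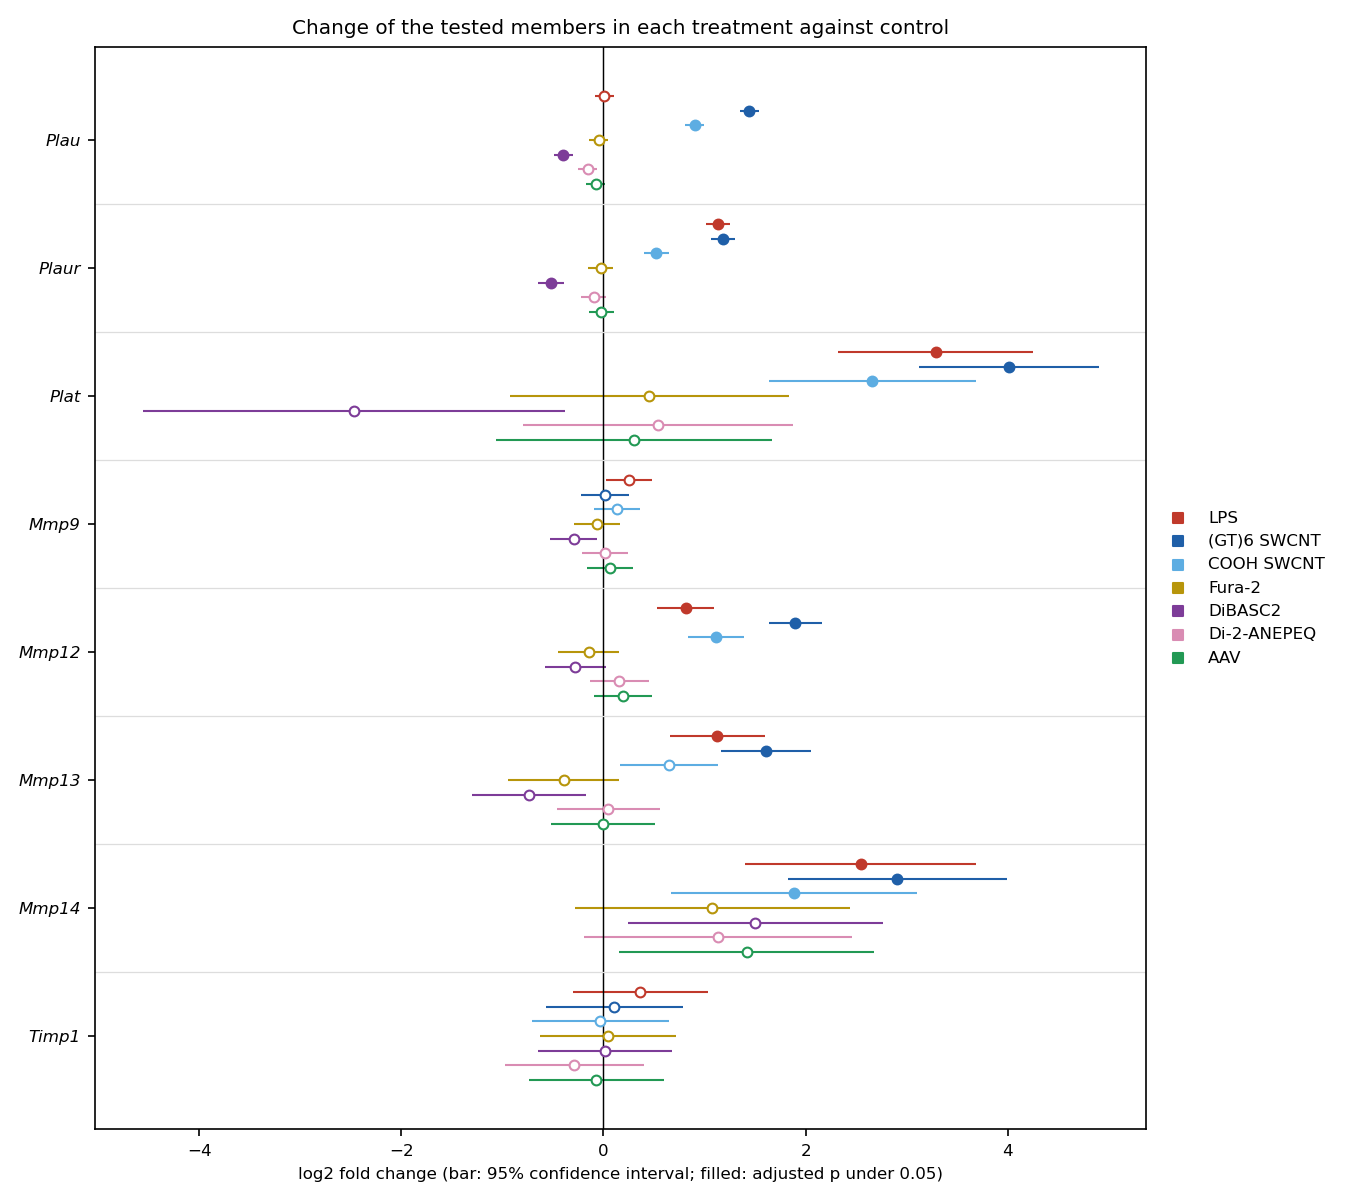
Log2 fold change of the 8 tested members against control (horizontal axis) in 7 treatments, with 95% confidence intervals; filled points have an adjusted p under 0.05. Plau is the member with a change near 0 in LPS (0.01) and clear rises in both nanotube groups (1.44 and 0.90), and DiBASC2 lies left of 0 for Plau and Plaur.

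Plau encodes urokinase, the activator that macrophages secrete. Its level was 513, 479.5 and 449 CPM in the 3 control libraries, 886, 899 and 908 in COOH SWCNT, 1337, 1315 and 1271 in (GT)6 SWCNT and 494, 486 and 473 in LPS. The libraries of the 2 nanotube groups overlapped neither each other nor any other group, and the LPS libraries lay within the range of control. Plau rose by a log2 fold change of 1.44 ± 0.05 (SE; 2.72-fold, adjusted p = 5.28e-24) in (GT)6 SWCNT. It rose by 0.90 ± 0.05 (1.87-fold, adjusted p = 2.69e-17) in COOH SWCNT, and in each of these comparisons it ranked number 6 of 13116 genes by p. In LPS its log2 fold change was 0.01 ± 0.05, with a 95% interval of −0.08 to 0.10 (adjusted p = 0.904). The differences themselves were also past the threshold: Plau was higher in (GT)6 SWCNT than in LPS by 1.43 ± 0.05 (adjusted p = 1.11e-24) and higher in COOH SWCNT than in LPS by 0.89 ± 0.05 (adjusted p = 1.88e-18). (GT)6 SWCNT exceeded COOH SWCNT by 0.54 ± 0.05 (1.46-fold, adjusted p = 3.49e-11).

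In the other treatments Plau stayed near control or below it. It stood at 444, 455 and 468 CPM in AAV, 467, 429 and 400.0 in Di-2-ANEPEQ, 481, 469 and 446 in Fura-2 and 349, 374 and 373 in DiBASC2. All 3 DiBASC2 libraries lay below every library of the other 7 groups. Plau fell by 0.40 ± 0.05 on the log2 scale in DiBASC2 (adjusted p = 1.86e-07, number 24 of 13116 genes by p). In Di-2-ANEPEQ the log2 fold change was −0.15 ± 0.05 with an adjusted p of 0.0554, which did not pass, and the libraries overlapped with control. That value crossed the threshold when the library labelled control replicate 3 or Di-2-ANEPEQ replicate 1 was left out (log2 fold changes of −0.20 and −0.22, adjusted p = 0.0335 and 0.00894).

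Plaur encodes the receptor that concentrates urokinase on the cell surface. Its level was 65.3, 65.5 and 64.7 CPM in control, 88.3, 94.1 and 98.9 in COOH SWCNT, 157, 149 and 136 in (GT)6 SWCNT and 134, 146 and 148 in LPS. Every library of these 3 treatments exceeded every control library, the LPS and (GT)6 SWCNT libraries overlapped each other, and COOH SWCNT lay between them and control. Plaur rose by 0.52 ± 0.06 (log2, 1.44-fold, adjusted p = 1.64e-08) in COOH SWCNT, by 1.18 ± 0.06 (2.27-fold, adjusted p = 1.39e-18) in (GT)6 SWCNT and by 1.13 ± 0.06 (2.19-fold, adjusted p = 1.73e-18) in LPS. Unlike Plau, Plaur did not pass in (GT)6 SWCNT against LPS, where the log2 difference was 0.05 ± 0.05 with an interval of −0.06 to 0.16 (adjusted p = 0.603). COOH SWCNT was lower than LPS (log2 difference −0.61 ± 0.06, adjusted p = 3.32e-11) and lower than (GT)6 SWCNT, which exceeded it by 0.65 ± 0.06 (adjusted p = 5.9e-11). DiBASC2 held 48.1, 45.4 and 42.5 CPM, below every library of the other groups. There Plaur fell by 0.52 ± 0.06 on the log2 scale (adjusted p = 2.67e-07). Its means in Fura-2, Di-2-ANEPEQ and AAV were 64.1 ± 3.32, 60.7 ± 5.50 and 64.2 ± 3.13 CPM (SD, n = 3), overlapping with control.

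Ligand and receptor were also set against each other as the ratio of Plau to Plaur within a library (both per kilobase), given without a test. That ratio was 8.16 ± 0.508 in control, 10.6 ± 0.476 in COOH SWCNT, 9.83 ± 0.449 in (GT)6 SWCNT and 3.76 ± 0.289 in LPS (mean ± SD, n = 3). The LPS libraries lay below those of all other groups. In DiBASC2, where both fell, the ratio was 8.94 ± 0.845, overlapping with control.

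**Figure D3:**
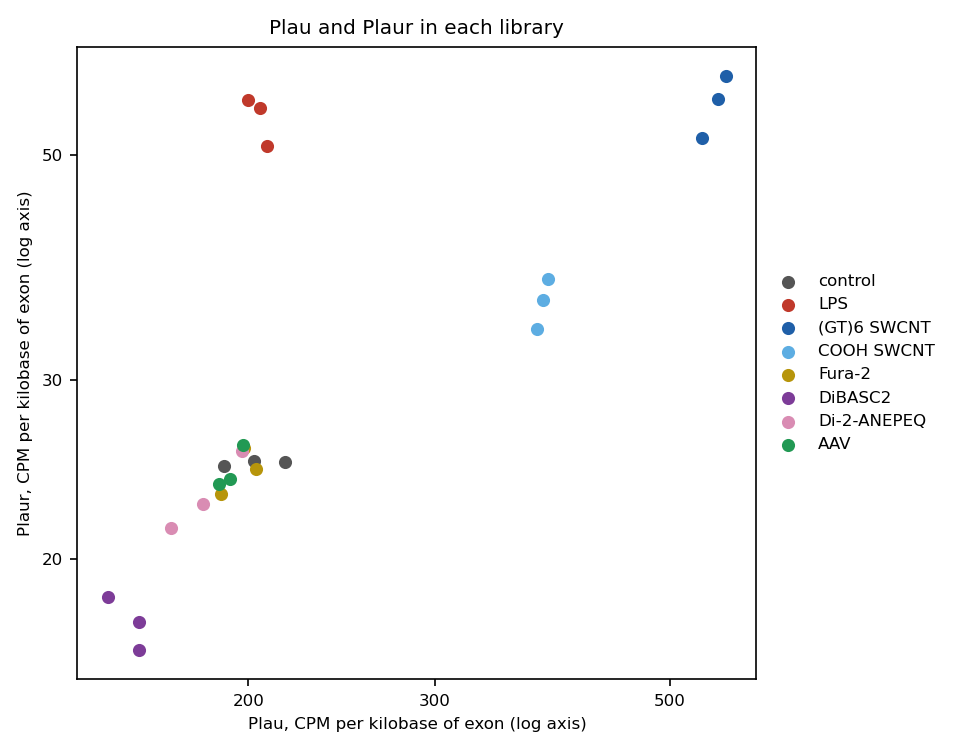
Plau (horizontal) and Plaur (vertical), both as CPM per kilobase of exon on log axes, in each of the 24 libraries, coloured by group. The 3 LPS libraries share the Plau level of control at a higher Plaur level (2.19-fold by the fit), the nanotube libraries lie to the right of and above control, and the DiBASC2 libraries lie to the left of and below it.

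Plat, the tissue-type activator best known from endothelium and neurons, was close to the limit of detection in control cells. The control libraries held 1, 5 and 4 counts of it, the LPS libraries 44, 32 and 23, those of (GT)6 SWCNT 90, 55 and 35 and those of COOH SWCNT 23, 22 and 31. In that order the group means were 0.160 ± 0.0914, 1.68 ± 0.665, 2.70 ± 0.873 and 1.08 ± 0.193 CPM. All libraries of the 3 treatments exceeded all control libraries, at counts that remained small. The fitted log2 fold changes were 2.66 ± 0.50 in COOH SWCNT (adjusted p = 0.000144), 4.01 ± 0.44 in (GT)6 SWCNT (adjusted p = 3.48e-09) and 3.29 ± 0.48 in LPS (adjusted p = 7.17e-07). (GT)6 SWCNT was higher than COOH SWCNT by 1.35 ± 0.30 (adjusted p = 0.00118), and its difference from LPS, 0.72 ± 0.29, did not pass (adjusted p = 0.0715). DiBASC2 held 2, 0 and 0 counts, and its log2 fold change of −2.47 ± 1.03 did not pass (adjusted p = 0.174). AAV held 7, 5 and 5 counts, Di-2-ANEPEQ 9, 6 and 4 and Fura-2 4, 9 and 3, and none of these was called.

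Serpinb2 (PAI-2), an inhibitor of both activators that activated macrophages are known to make in quantity, was almost absent from these counts. It had 4, 0 and 2 counts in the LPS libraries, 1, 0 and 0 in Fura-2, and 0 in the other 18 libraries. A count of 0 allows up to 3 counts, which is 0.102 to 0.176 CPM in these libraries and covers counting error only. Without the filter on low counts, its adjusted p in LPS was 0.218, so a difference was not detectable at this depth. The match to TGANTCA in its printed window reads TGAATCA, beside TGACTCA in Plaur and Mmp13 and TGAGTCA in Mmp12. Whether these letters bear on the level of the transcripts was not tested.

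Mmp12, the macrophage elastase, showed the same order as Plau among the nanotube groups, and it also rose in LPS. Its level was 21.3, 16.9 and 14.2 CPM in control, 33.8, 36.6 and 42.7 in COOH SWCNT, 74.9, 58.8 and 60.8 in (GT)6 SWCNT and 30.4, 27.7 and 33.7 in LPS. These 4 groups did not overlap with one another. Mmp12 rose by 1.11 ± 0.13 (log2, 2.16-fold, adjusted p = 7.1e-08) in COOH SWCNT, by 1.90 ± 0.13 (3.73-fold, adjusted p = 1.93e-14) in (GT)6 SWCNT and by 0.81 ± 0.14 (1.76-fold, adjusted p = 1.4e-05) in LPS. Its level in (GT)6 SWCNT was higher than in LPS by 1.09 ± 0.12 (adjusted p = 3.62e-09) and higher than in COOH SWCNT by 0.78 ± 0.12 (adjusted p = 4.38e-06). Between COOH SWCNT and LPS the log2 difference was 0.30 ± 0.12 with an interval of 0.05 to 0.55, and it narrowly missed the threshold (adjusted p = 0.0551). In AAV, Di-2-ANEPEQ, Fura-2 and DiBASC2 the means were 19.99 ± 4.39, 19.4 ± 2.63, 15.7 ± 2.33 and 14.5 ± 2.51 CPM, all overlapping with control.

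Mmp13, a collagenase and the neighbour of Mmp12 on chromosome 9, had a lower level per kilobase than Mmp12 in control. It stood at 2.20, 1.32 and 2.51 CPM in control, 3.22, 2.81 and 3.16 in COOH SWCNT, 6.57, 6.10 and 5.27 in (GT)6 SWCNT and 3.59, 4.35 and 4.91 in LPS. The 3 treated groups lay above control without overlap and were ordered COOH SWCNT, LPS, (GT)6 SWCNT. Mmp13 rose by 1.13 ± 0.23 (log2, adjusted p = 0.000196) in LPS and by 1.61 ± 0.22 (adjusted p = 3.54e-07) in (GT)6 SWCNT. Its log2 fold change of 0.64 ± 0.24 in COOH SWCNT missed the threshold (adjusted p = 0.0519). Without control replicate 2 it was 0.39 (adjusted p = 0.33), and it passed without control replicate 3 (0.85, adjusted p = 0.0291). It also passed with DESeq2, with upper-quartile factors, without the filter, with a mean of at least 50 counts and in a fit of only these 2 groups (adjusted p of 0.046, 0.0488, 0.0129, 0.0442 and 0.0263). (GT)6 SWCNT was higher than COOH SWCNT by 0.97 ± 0.20 (adjusted p = 0.000415). The differences from LPS were 0.49 ± 0.19 for (GT)6 SWCNT and −0.48 ± 0.21 for COOH SWCNT (adjusted p = 0.0674 and 0.0661), neither past the threshold. In AAV, Di-2-ANEPEQ, Fura-2 and DiBASC2 the means were 1.96 ± 0.197, 1.99 ± 0.921, 1.49 ± 0.301 and 1.19 ± 0.309 CPM, with none called.

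Mmp14, a membrane-bound metalloproteinase that activates other family members, had 2, 4 and 2 counts in control, 16, 4 and 16 in COOH SWCNT, 28, 26 and 13 in (GT)6 SWCNT and 14, 20 and 14 in LPS. The LPS, (GT)6 SWCNT, Fura-2, DiBASC2 and AAV libraries all lay above control in CPM, and the lowest COOH SWCNT library, with the same 4 counts as 1 control library, lay just above it in CPM (0.200 against 0.170). The fitted log2 fold changes were 1.88 ± 0.60 in COOH SWCNT (adjusted p = 0.0217), 2.91 ± 0.53 in (GT)6 SWCNT (adjusted p = 6.29e-05) and 2.54 ± 0.56 in LPS (adjusted p = 0.000478). The call in COOH SWCNT was lost when control replicate 1 or 3, or COOH SWCNT replicate 1 or 3, was left out (adjusted p of 0.075, 0.0721, 0.0938 and 0.0852). DiBASC2 had 15, 5 and 10 counts and AAV 12, 8 and 10, and neither passed (log2 fold changes of 1.50 ± 0.62 and 1.42 ± 0.62, adjusted p = 0.171 and 0.179). Fura-2 had 6, 8 and 6 and Di-2-ANEPEQ 9, 2 and 12, also not called, and the last of these overlapped with control.

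Mmp9 (gelatinase B) was not called in any of the 10 comparisons. It stood at 14.5, 11.96 and 11.1 CPM in control, 12.3, 15.8 and 13.1 in COOH SWCNT, 12.3, 12.6 and 12.9 in (GT)6 SWCNT, 12.1, 14.9 and 17.3 in LPS and 10.7, 10.9 and 8.81 in DiBASC2. The control libraries overlapped with all of these except DiBASC2. Its log2 fold change had a 95% interval of −0.22 to 0.25 in (GT)6 SWCNT and −0.10 to 0.36 in COOH SWCNT, so that at this depth a doubling lies outside both. In LPS the log2 fold change was 0.25 ± 0.11 (adjusted p = 0.0958). It passed without control replicate 1 (0.37, adjusted p = 0.0217) and without LPS replicate 1 (0.38, adjusted p = 0.00974), and it was 0.13 without LPS replicate 3 (adjusted p = 0.502). In DiBASC2 it was −0.29 ± 0.12 (adjusted p = 0.143). The means in AAV, Di-2-ANEPEQ and Fura-2 were 13.1 ± 1.38, 12.6 ± 1.05 and 11.96 ± 0.561 CPM.

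Timp1, an inhibitor of most of these proteases, had 9 to 37 counts per library and was not called in any comparison either. Its control libraries stood at 1.81, 0.936 and 0.481 CPM, which include both the lowest and the highest value of all 24 libraries. The log2 fold changes were −0.03 ± 0.33 in COOH SWCNT (−0.71 to 0.65), 0.11 ± 0.33 in (GT)6 SWCNT (−0.57 to 0.79) and 0.37 ± 0.33 in LPS (−0.30 to 1.03), with 95% intervals in parentheses. Without control replicate 1 these values became 0.53, 0.67 and 0.92, and without control replicate 3 −0.35, −0.20 and 0.04, so the sign in the nanotube groups rests on single control libraries. None of these 6 values passed (adjusted p of 0.0565 to 0.949). Changes within these bounds were not detectable at this depth. In AAV, Di-2-ANEPEQ, Fura-2 and DiBASC2 the means were 1.02 ± 0.324, 0.863 ± 0.196, 1.09 ± 0.120 and 1.06 ± 0.300 CPM.

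Among the dyes and AAV, members were called in DiBASC2 only, and the differences between these treatments were not tested. In DiBASC2 2 of the 8 tested members fell (Plau and Plaur), where 5.47% of genes were called and 3.64% were lower, and the median over the 6 members other than Plat and Mmp14 was −0.34 beside 0.00 over all genes. An unadjusted p under 0.05 was found for 6 members in DiBASC2, all lower except Mmp14, which was higher (1.50 on the log2 scale). The last of these 6 by p, Plat, ranked number 1640 of 13116 genes, so this looser threshold takes in many other genes. The share of all genes under it is not given here, and the percentages called are at the adjusted p. In Fura-2 0 members were called by edgeR or by DESeq2 and 0 had an unadjusted p under 0.05, with 0.252% of all genes called. In Di-2-ANEPEQ 0 were called by edgeR, 1 (Plau) by DESeq2 and 1 had an unadjusted p under 0.05, with 3.08% of genes called. In AAV 0 were called by edgeR or by DESeq2 and 1 (Mmp14) had an unadjusted p under 0.05, with 5.00% called. By p, Plau ranked number 446 of 13116 genes in Di-2-ANEPEQ and Mmp14 number 2141 in AAV.

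The nanotube groups and LPS were also compared directly. (GT)6 SWCNT exceeded COOH SWCNT in 5 of 8 tested members (Plau, Plaur, Plat, Mmp12 and Mmp13), where 21.4% of genes were called and 11.9% were higher in (GT)6 SWCNT. It exceeded LPS in 2 members (Plau and Mmp12), where 21.6% were called and 9.63% were higher. COOH SWCNT exceeded LPS in Plau and was lower in Plaur, where 37.8% were called, 18.1% higher and 19.7% lower. For Mmp14 the (GT)6 SWCNT and COOH SWCNT groups differed by 1.02 ± 0.39 (log2), which did not pass (adjusted p = 0.0584). Without LPS replicate 1 the count for (GT)6 SWCNT against LPS was 4, with Plat higher (1.06, adjusted p = 0.0193) and Mmp9 lower (−0.36, adjusted p = 0.0199). Without LPS replicate 3 the count for COOH SWCNT against LPS was 4, with Plat lower (−0.88, adjusted p = 0.0481) and Mmp12 higher (0.37, adjusted p = 0.0425). These 3 comparisons share libraries with one another and with those against control.

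**Figure D4:**
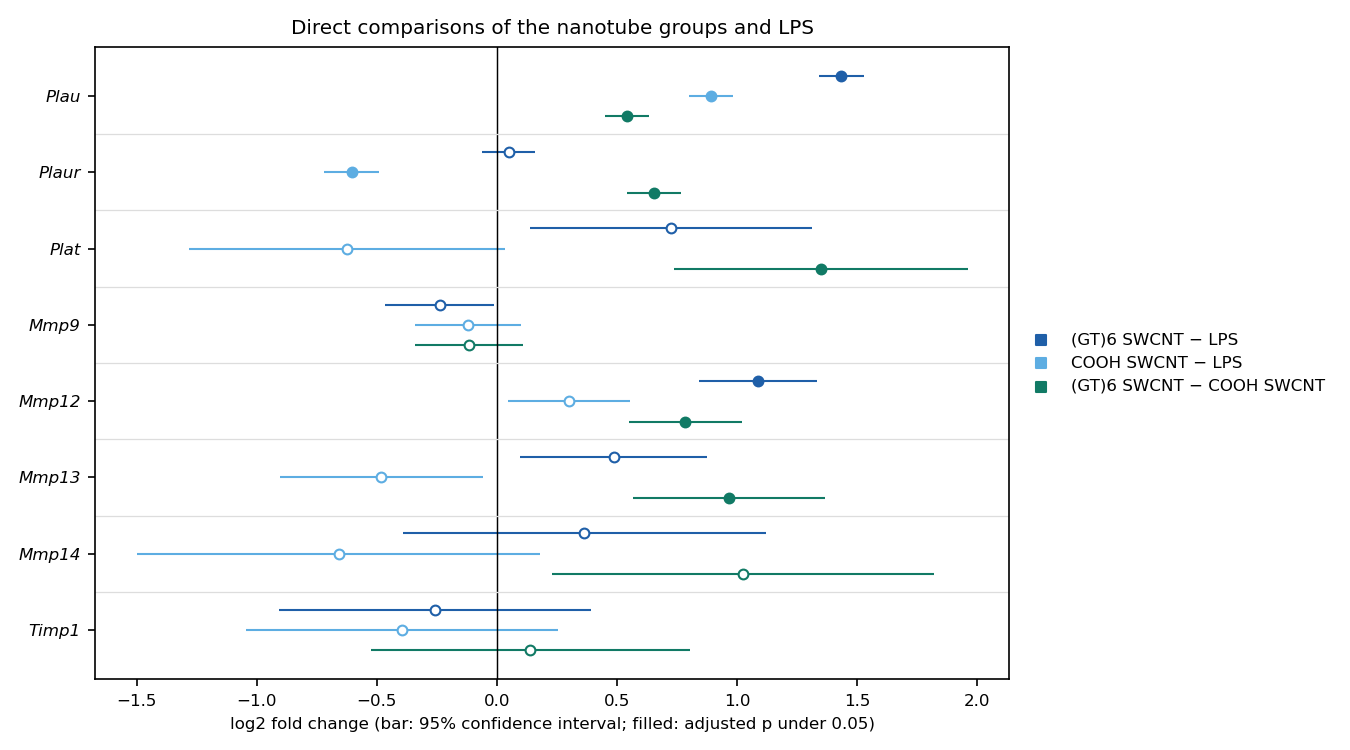
Log2 difference of the 8 tested members (horizontal axis, with 95% confidence intervals; filled at an adjusted p under 0.05) for (GT)6 SWCNT and COOH SWCNT against LPS and against each other. Plau lies right of 0 in all 3 comparisons (1.43, 0.89 and 0.54), and Plaur lies left of 0 only for COOH SWCNT against LPS (−0.61).

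Other genes of plasminogen activation came from a list of 15, of which 7 were tested. In LPS 1 rose (Hpn), in (GT)6 SWCNT 1 (Anxa2), in COOH SWCNT 1 rose (Lrp1) and 1 fell (S100a10), and in Di-2-ANEPEQ and in AAV 1 rose (Lrp1). Over all tested genes 28.3% were called in LPS, 20.4% in (GT)6 SWCNT, 20.0% in COOH SWCNT, 3.08% in Di-2-ANEPEQ and 5.00% in AAV. Hpn (hepsin, a membrane serine protease) rose in LPS by 1.13 ± 0.15 (adjusted p = 1.45e-07), from 3.10 ± 0.284 to 6.83 ± 0.641 CPM. S100a10, which with Anxa2 forms a surface receptor for plasminogen, fell in COOH SWCNT by 0.36 ± 0.06 (log2, adjusted p = 2.23e-05). Anxa2 rose in (GT)6 SWCNT by 0.13 ± 0.04 (adjusted p = 0.0322), a call lost in 4 of 6 fits that left out a library of either group (control replicates 2 and 3, (GT)6 SWCNT replicates 1 and 2). Lrp1, an endocytic receptor that clears activator and inhibitor complexes, is named after its values were seen. It rose by 0.22 ± 0.06 in COOH SWCNT (adjusted p = 0.00833), 0.22 ± 0.06 in Di-2-ANEPEQ (0.0374) and 0.26 ± 0.06 in AAV (0.00897). The first of these calls was lost without COOH SWCNT replicate 1 (0.0588), the second in 5 of 6 fits that left out a library (all but control replicate 2) and with DESeq2 (0.0982), and the third without control replicate 1 or AAV replicate 2 or 3 (0.0592, 0.0661 and 0.0716).

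Of 23 other metalloproteinases and their inhibitors 6 were tested, and the changes went both ways. In LPS Mmp10 rose and Mmp19 and Timp2 fell, where 28.3% of all tested genes were called. In (GT)6 SWCNT Mmp10 rose and Mmp19 fell, where 20.4% were called. None was called by edgeR in COOH SWCNT, Fura-2 or DiBASC2, where 0 had an unadjusted p under 0.05, or in Di-2-ANEPEQ or AAV, where 1 had. The share of all genes under that unadjusted threshold is not given here. Mmp19, a metalloproteinase of macrophages among other cells, went from 21.2 ± 1.59 CPM in control to 15.7 ± 1.70 in LPS (log2 fold change −0.43 ± 0.08, adjusted p = 5.67e-05) and 17.02 ± 0.479 in (GT)6 SWCNT (−0.31 ± 0.08, adjusted p = 0.00328, lost without control replicate 3 at 0.0546). Timp2, the tested inhibitor with the highest level per kilobase in control, fell in LPS by 0.15 ± 0.04 (log2, adjusted p = 0.0056), which did not pass without control replicate 1 or LPS replicate 1 (0.0541 and 0.0737). Mmp10 (stromelysin-2), also named after its values were seen, had 3 to 8 counts in control, 17 to 19 in LPS and 8 to 28 in (GT)6 SWCNT (adjusted p = 0.00571 and 0.0193). The (GT)6 SWCNT call was lost without control replicate 1 or 2 or (GT)6 SWCNT replicate 1 (0.103, 0.0521 and 0.223). Mmp10 was tested in 12 alternatives in LPS and in 11 in (GT)6 SWCNT, beside 13 for Mmp19. At counts this low it passed the filter only in part of the fits, so its calls are descriptions. The ratio of Mmp12 to Timp2 within a library (per kilobase) was 0.105 ± 0.0190 in control, 0.230 ± 0.0297 in COOH SWCNT, 0.406 ± 0.0550 in (GT)6 SWCNT and 0.206 ± 0.0146 in LPS. For Mmp9 to Timp2 it was 0.154 ± 0.0173 in control, with overlapping libraries in COOH SWCNT (0.171 ± 0.0202) and (GT)6 SWCNT (0.162 ± 0.00611). In LPS that ratio was 0.203 ± 0.0252, with its lowest library (0.175) just above the highest of control (0.173). The ratios were not tested.

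The last list held 14 ADAM and ADAMTS proteases and metalloproteinase activators or partners, 10 of them tested. In LPS 5 rose and 2 fell, in (GT)6 SWCNT 7 rose, in COOH SWCNT 6 rose, in DiBASC2 3 fell, and in Di-2-ANEPEQ and AAV 1 rose. Over all tested genes 28.3% were called in LPS (13.8% higher), 20.4% in (GT)6 SWCNT (9.90% higher) and 20.0% in COOH SWCNT (9.39% higher). The shares called were 5.47% in DiBASC2 (3.64% lower), 3.08% in Di-2-ANEPEQ and 5.00% in AAV. Adamts4, an aggrecanase, stood at 1.37, 1.66 and 1.92 CPM in control and 23.04, 22.4 and 20.2 in LPS. It rose by 3.72 ± 0.16 (13.2-fold, adjusted p = 2.73e-21) in LPS and by 0.71 ± 0.21 and 0.61 ± 0.21 in (GT)6 SWCNT and COOH SWCNT (adjusted p = 0.0113 and 0.0329). The nanotube calls were lost without control replicate 1 (adjusted p of 0.0518 and 0.133). The (GT)6 SWCNT call was also lost without (GT)6 SWCNT replicate 1, and the COOH SWCNT call without control replicate 2 or COOH SWCNT replicate 1 or 3. Adamts1, a related protease, rose by 1.60 ± 0.05, 0.70 ± 0.06 and 0.38 ± 0.06 in LPS, (GT)6 SWCNT and COOH SWCNT and fell by 0.29 in DiBASC2 (adjusted p = 0.00181).

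Furin, the convertase that cuts the precursor of Mmp14, rose in LPS by 0.88 ± 0.05 (adjusted p = 2.52e-18), in (GT)6 SWCNT by 0.78 ± 0.05 (2.61e-16) and in COOH SWCNT by 0.64 ± 0.05 (2.39e-13). It was also called in Di-2-ANEPEQ (0.16 ± 0.05, 0.0425) and AAV (0.17 ± 0.05, 0.025), and both calls were lost without control replicate 2 or 3 (0.0937 and 0.173 in Di-2-ANEPEQ, 0.0579 and 0.108 in AAV). The AAV call was also lost without AAV replicate 2, and the Di-2-ANEPEQ call without replicate 1 or 2 of its own group or control replicate 1. The list's other calls, named after their values were seen, were small: Adam17 rose in LPS (0.41, 1.65e-10) and (GT)6 SWCNT (0.11, 0.044), Adam9 rose in (GT)6 SWCNT (0.14, 0.0142) and COOH SWCNT (0.12, 0.0378), and Adam15 changed by −0.10 in LPS (0.0482), each as a log2 fold change and adjusted p. Of these 5 calls, all but that of Adam17 in LPS were lost in at least 1 fit that left out a library: Adam17 in (GT)6 SWCNT without control replicate 2 or 3 or (GT)6 SWCNT replicate 1 or 2, Adam9 without (GT)6 SWCNT replicate 1 and, in COOH SWCNT, without control replicate 1 or 3 or COOH SWCNT replicate 1, and Adam15 without control replicate 2 or 3 or LPS replicate 1 or 2. Adam8, a surface protease of leukocytes, went from 236, 226 and 214 CPM in control to 265, 282 and 272 in COOH SWCNT, 302, 298 and 288 in (GT)6 SWCNT and 200.3, 195 and 211 in LPS. The LPS libraries were lower than control and the nanotube libraries higher, in each case without overlap. Its log2 fold change was 0.28 ± 0.05 in COOH SWCNT (adjusted p = 3.06e-05), 0.39 ± 0.05 in (GT)6 SWCNT (2.75e-08), −0.23 ± 0.05 in DiBASC2 (0.00177) and −0.15 ± 0.05 in LPS (0.0128). The LPS call was lost without control replicate 1 or 2 or LPS replicate 2 (adjusted p of 0.129, 0.055 and 0.0995), while (GT)6 SWCNT and COOH SWCNT each exceeded LPS directly, by 0.55 ± 0.05 and 0.43 ± 0.05 (adjusted p = 7.49e-12 and 2.04e-09). Cd44, a surface receptor that can dock Mmp9 and Mmp14, rose by 0.36 ± 0.03, 0.39 ± 0.03 and 0.26 ± 0.03 in the same order of LPS, (GT)6 SWCNT and COOH SWCNT and fell by 0.25 in DiBASC2 (adjusted p = 4.24e-06). Bsg (basigin), which stood at 259 ± 4.08 CPM in control, was not called in any of the 10 comparisons.

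**Figure D5:**
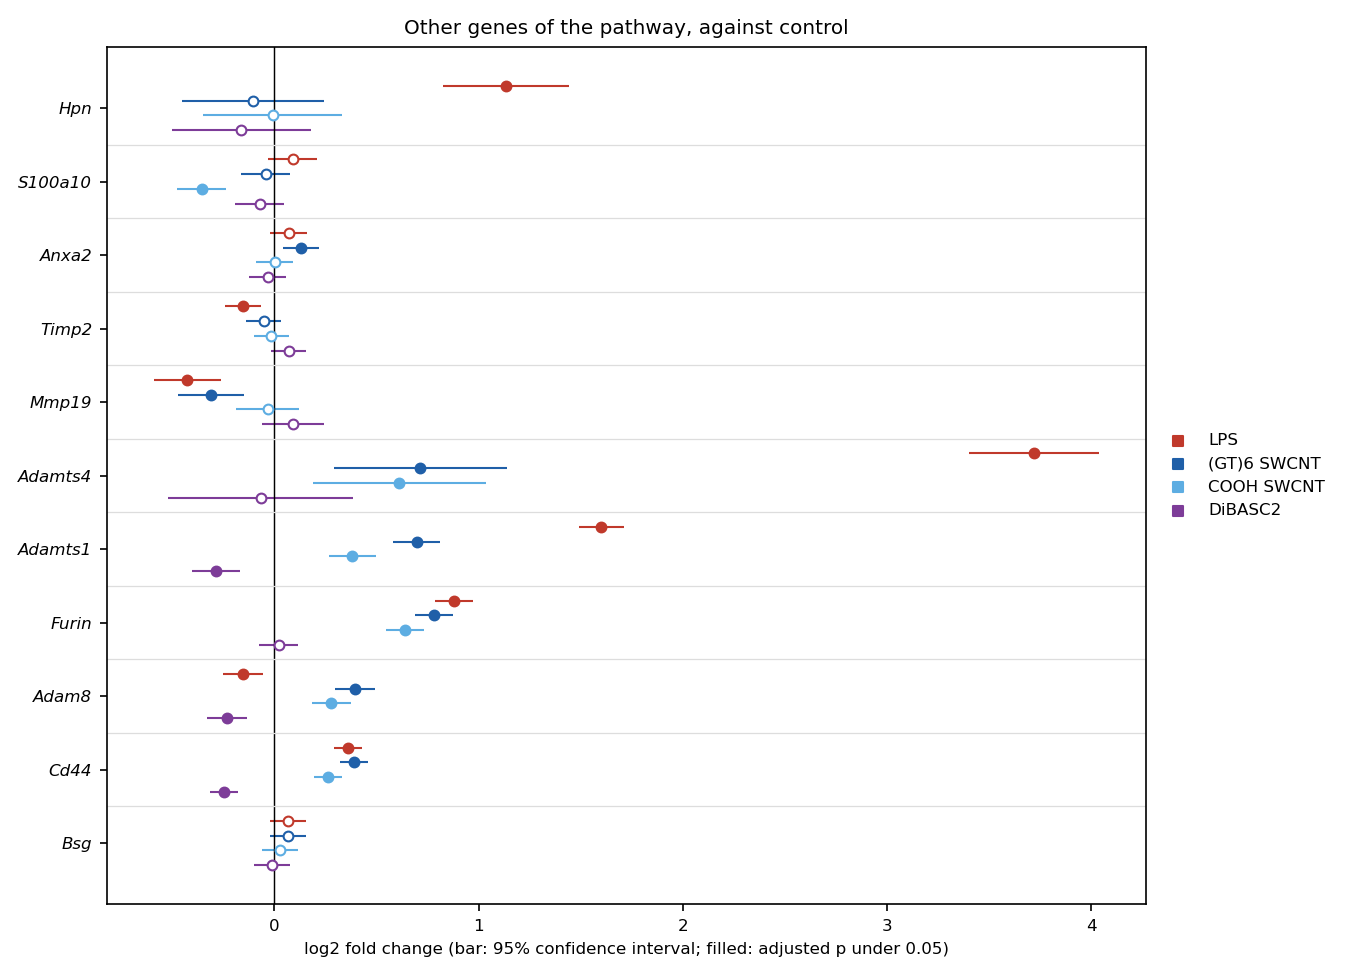
Log2 fold change against control (horizontal axis, with 95% confidence intervals; filled at an adjusted p under 0.05) of 11 other genes of the pathway in LPS, both nanotube groups and DiBASC2. Adamts4 (3.72) stands far to the right in LPS, and Adam8 lies left of 0 in LPS and DiBASC2 and right of 0 in the nanotube groups.

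For each member called against control, the 2 genes with the most similar pattern were found by Pearson's r of log2 CPM over the 24 libraries, among 9488 other genes with a mean of at least 5 CPM. The libraries are grouped by treatment and share a scaling, so r is a description here. For Plau these were Gpr35 (r = 0.979) and Trib1 (0.974), and Gpr35 stood at 35.96 ± 2.09 CPM in control, 62.3 ± 2.96 in COOH SWCNT, 94.95 ± 5.78 in (GT)6 SWCNT and 31.1 ± 3.08 in LPS. Like Plau, Gpr35 was high in the nanotube groups and not raised in LPS, where its mean lay below that of control. No test of Gpr35 is given here. For Plaur they were Rsbn1 and Slc25a25 (both 0.985), and for Plat Fosl2 (0.966) and Sertad2 (0.964). For Mmp12 they were Slc20a1 (0.963) and the pseudogene-named Gpr137b-ps (0.962), for Mmp13 the interleukin-1 receptor antagonist Il1rn (0.931) and Mafk (0.924), and for Mmp14 Mdfic (0.814) and Lims1 (0.780). Among the members, Plat and Plaur were the closest pair (r = 0.950), followed by Plaur with Mmp13 (0.913) and Plau with Mmp12 (0.910).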

How the data were processed

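The authors deposited 1 table of raw counts, whole numbers per gene and library, with 54838 versioned Ensembl identifiers. Per the submitters' processing notes, STAR 2.5.4b and build GRCm38.p6 were used. The counting tool and strand setting are not given in the sources used here. Symbols came from GENCODE M21, which matched 54809 identifiers (53947 with the version). Sample titles gave the groups. The columns spell DiBASC2 as DiSBAC2, and its treatment label varies between libraries.

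Tests were run in edgeR 4.0.16 under R 4.3.3. The steps were also run on counts simulated for LPS against control, with a single dispersion shared by all genes. The genes changed in that simulation all stood above the control levels of Plat and Mmp14, so it does not cover counts that low. filterByExpr with default settings kept 13116 genes, and TMM factors scaled the libraries. The glmQLFit model held 8 group means, 24 libraries and 16 residual degrees of freedom. The 10 contrasts were tested two-sided with glmQLFTest, and p-values were adjusted by Benjamini-Hochberg over all tested genes, with calls at 0.05. CPM carry the TMM factors. CPM per kilobase divides by the union of GENCODE exons. The biological coefficient of variation was 4.12%. The 24 replicate pairs differed by more than sampling noise (chi-square per degree of freedom 2.43 to 18.9).

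The members and lists were chosen with earlier results of these data known, and 1 listed gene is not reported here. The other genes named are, per list, those called with a log2 fold change of 0.5 or more in size and a mean of 5 CPM or more in the higher group (at most 5), plus the 2 highest per kilobase in control. Alternatives were DESeq2 1.42.0, other scalings and filters, the replicate block, fits of 2 groups and leaving out each library.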

Additional observations from a re-analysis of the deposited data

How the results depend on the processing

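The number of members called kept within 1.5 times its value under the alternatives that were run, except as follows. Of 89 called values of the genes refitted, 0 changed sign under any of these alternatives. Of 151 values not called, 54 changed sign in at least 1, among them Plau in LPS, Mmp9 in (GT)6 SWCNT and Timp1 in both nanotube groups. In LPS against control 5 members were called and 3 with a mean of at least 50 counts, because Plat and Mmp14 were then not tested. In DiBASC2 against control 2 were called and 4 without the low-count filter, with Mmp12 and Mmp13 also lower. In Di-2-ANEPEQ against control 0 were called and 1, Plau, with upper-quartile factors, without the filter, with a mean of at least 50 counts, in a fit of only the 2 groups and with DESeq2. Leaving out single libraries gave 0 to 1 there (1 without replicate 1 of that group, and 1 without control replicate 3). In (GT)6 SWCNT against LPS leaving out single libraries gave 2 to 4 calls (2 with all, 4 without LPS replicate 1). In COOH SWCNT against LPS 2 became 4 without the filter and in a fit of only the 2 groups, and single libraries left out gave 2 to 4 (4 without LPS replicate 3). The causes of these other changes were not tested.

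Replicate numbers did not pair the libraries: deviations of the 30 same-numbered pairs correlated at −0.104 to 0.0696. With the replicate block, 1 member (Plau) was called in Di-2-ANEPEQ and 3 in COOH SWCNT against LPS, and the counts of the other 8 comparisons were as without it. Of 27 called values of members, 343 alternatives kept the call in 339, and the 4 losses were all Mmp14 in COOH SWCNT. Fits in which a member was not tested are not among these 343, nor among the 658 below. Calls of Plat and Mmp14 rest on 12 alternatives each, and that of Mmp14 in COOH SWCNT against control on 11, beside 13 for Plau. With a mean of at least 50 counts Plat and Mmp14 were not tested, so their calls were not kept there. Of 53 values not called, 37 of 658 alternatives passed the threshold. Other scalings shifted the median of all genes by at most 0.0515 (log2). Lrp1, Mmp10, Adam9, Adam15 and Adam17 were refitted as alternatives chosen after seeing the data. Depth limits Plat, Mmp14, Timp1 and Serpinb2, which rest on few counts.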

Other observations

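Mmp12 and Mmp13 lie in a run of 9 protein-coding metalloproteinase genes on chromosome 9 that spans 427 kilobases. Of these, 4 were tested (Mmp13, Mmp12, Mmp10 and Mmp8), and the other 5 (Mmp1b, Mmp3, Mmp27, Mmp20 and Mmp7) had at most 3 counts in any library. Mmp8 (neutrophil collagenase), with at most 16 counts per library, was not called in any treatment against control. Mmp10 was lower in COOH SWCNT than in LPS by a log2 fold change of −1.05 ± 0.38 (adjusted p = 0.0251 in edgeR), a call lost without LPS replicate 1 or 2, COOH SWCNT replicate 2 or 3 or the low-count filter (adjusted p of 0.0596, 0.0716, 0.0749, 0.0842 and 0.0693). Its difference between (GT)6 SWCNT and COOH SWCNT was 0.91 ± 0.38 (adjusted p = 0.0856, and 0.0409 without (GT)6 SWCNT replicate 3). Mmp1b shares exon bases with Mmp12, and its count did not exceed 1 in any library.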
